A study of Homo sapiens with 8 samples.

Results

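The BCL2 family decides whether the outer membrane of the mitochondrion stays closed or opens and lets cytochrome c out, the step that commits a cell to intrinsic apoptosis. Its anti-apoptotic proteins hold the others in check, its effectors form the pore, and its BH3-only proteins carry stress signals to both by inserting a short helix, the BH3 domain, into a groove of their partners. Many drugs that damage DNA or block its synthesis, 5-fluorouracil (5-FU) among them, kill cells through this pathway. In the colon the family sets how readily epithelial cells of the crypt die after genotoxic stress.

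The 10 genes described here are the anti-apoptotic BCL2, BCL2L1 and MCL1, the effectors BAX and BAK1, and the BH3-only genes BBC3, PMAIP1, BCL2L11, BID and BIK. They were taken by symbol from the 64253 genes of the count tables, each matched to its Ensembl identifier, and the rule uses no measured value. All 10 passed the filter on low counts. RNA-seq of poly(A)-captured mRNA was available for 8 libraries in 4 groups of 2 replicates, all of human colon cancer cells. HCT-8 is a 5-FU-sensitive colon cancer cell line and HCT-8/FU its 5-FU-resistant partner, both kept in unconditioned medium. In the groups called CM of HCT-8 and CM of HCT-8/FU, HCT-8 cells were grown in conditioned medium (CM), that is, medium in which HCT-8 or HCT-8/FU cells had been kept for 48 h. Both lines came from a supplier. How the resistant line was selected, whether it is 1 clone, whether it was kept under 5-FU and how long cells stayed in CM is not stated in the sources at hand. Since nothing says that replicates were separate cultures, p-values measure the spread between these libraries, which may be technical.

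Counts on genes ranged from 5804124 to 34881349 per library. In 3 libraries, HCT-8 replicate 1, HCT-8/FU replicate 2 and CM of HCT-8 replicate 1, between 20.0% and 29.6% of the sequenced records were not aligned, against 3.58% to 4.43% in the other 5. Of 8 colon epithelium markers, EPCAM, KRT8, KRT18, CDH1, VIL1, CDX2 and LGALS4 were expressed in every library, with means per group of 75.7 CPM or more, and CEACAM5 lay below 1 CPM. Of 6 markers of other cell types, PTPRC and CD3E had no count, COL3A1, CD68 and PECAM1 lay below 2 CPM, and COL1A1 stood at 8.19 to 13.8 CPM. CPM are counts scaled to a common library size with the TMM method, and CPM divided by the exonic length in kilobases is used wherever genes are compared with each other. In bulk RNA, fewer cells of a type and less RNA per cell cannot be told apart.

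The coding stretches for the BH3 domain are shown for the genes on which the comparisons turn, 3 anti-apoptotic genes, 1 effector and 1 BH3-only gene. Each is written 5′ to 3′ on the coding strand from the hg38 sequence of the GENCODE 44 canonical transcript. Capitals mark the codons of the leucine and the aspartate that the BH3 domains of the family share.
BCL2: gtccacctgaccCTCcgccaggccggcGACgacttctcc
BCL2L1: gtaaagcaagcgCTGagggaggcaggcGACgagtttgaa
MCL1: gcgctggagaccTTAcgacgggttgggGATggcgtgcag
BAX: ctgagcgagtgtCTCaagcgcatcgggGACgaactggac
BBC3: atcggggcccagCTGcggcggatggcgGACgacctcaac
The BCL2 stretch lies at chr18:63318352-63318390 on the minus strand in exon 2, and that of BCL2L1 at chr20:31721925-31721963 on the minus strand in exon 2. The MCL1 stretch lies at chr1:150578868-150578906 on the minus strand in exon 1, that of BAX at chr19:48955775-48955813 on the plus strand in exon 3, and that of BBC3 at chr19:47226582-47226620 on the minus strand in exon 3. All are exonic and coding. A count per gene adds up every isoform, so these values do not separate forms with this domain from forms without it, nor the long from the short product of BCL2L1.

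The family was expressed at very unequal levels. Per kilobase of exon, the mean over the 8 libraries was 62.5 CPM for BCL2L1 and 48.2 CPM for MCL1, and it lay between 7.05 and 22.5 CPM for BIK, BAX, BAK1, BBC3, PMAIP1 and BID. It was 2.59 CPM for BCL2L11 and 0.32 CPM for BCL2. BCL2, the founding member of the family, was thus read from only 23 to 172 counts per library, and its values carry the widest error of the 10. Within every library the level of BCL2L1 per kilobase was 100.2 to 425 times that of BCL2.

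**Figure D1:**
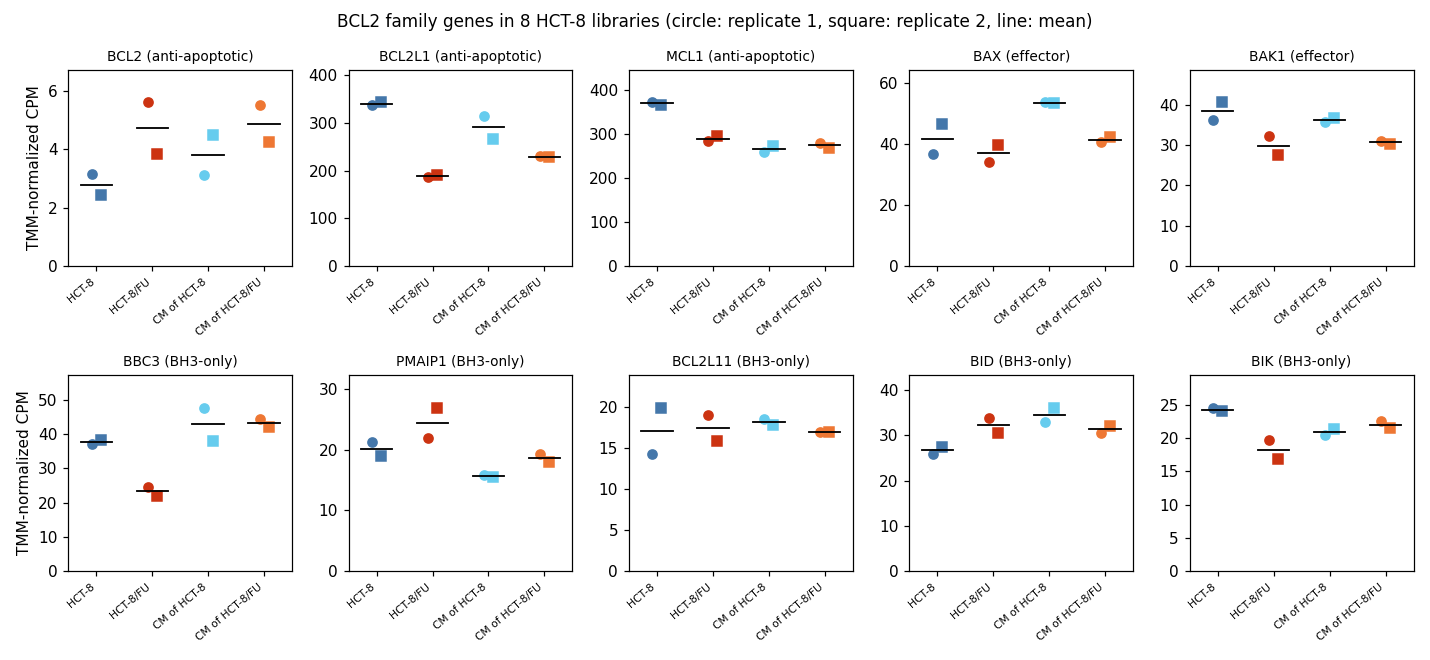
TMM-normalized CPM of the 10 BCL2 family genes (y axis, starting at 0, one scale per gene) in the 4 groups (x axis). Circles are replicate 1, squares replicate 2 and lines the mean of both. BCL2L1 is lowest in the HCT-8/FU libraries, at 187 and 191 CPM, and BBC3 is lowest there too, at 24.6 and 21.9 CPM.

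Comparing HCT-8/FU with HCT-8 shows in which of these genes the resistant line differed from the sensitive one. BCL2L1 and BBC3 fell and BCL2 rose. BCL2L1 is the most abundant of the 3 anti-apoptotic genes per kilobase in HCT-8, whereas BBC3, which encodes PUMA, is a killer gene of the BH3-only class. A gene was called changed where its FDR (Benjamini-Hochberg, over all 20305 tested genes) was 0.05 or less and its log2 fold change lay at or beyond 0.58 in either direction. By this rule 3 of 10 members changed, 1 higher and 2 lower, beside 21.3% of all tested genes, 13.2% higher and 8.12% lower. With 10 genes, 3 calls are close to what that share gives. On the FDR alone 6 of 10 passed, beside 36.7% of all genes. The median log2 fold change of the 10 was -0.29, beside 0.01 over all tested genes. Without the 3 libraries rich in unaligned records the same 3 members were called, with 1.21 for BCL2, -0.87 for BCL2L1 and -0.64 for BBC3, where each lone library is assumed to vary like the pair in CM of HCT-8/FU.

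BCL2L1 (ENSG00000171552, chr20:31664452-31723989, minus strand) encodes BCL-xL, which binds BAX, BAK and the BH3-only proteins and keeps them inactive. Its level was 337 and 343 CPM in HCT-8, 187 and 191 CPM in HCT-8/FU, 315 and 267 CPM in CM of HCT-8, and 229.5 and 228 CPM in CM of HCT-8/FU. No pair of groups overlapped, and the groups ran, from high to low, in the order HCT-8, CM of HCT-8, then the medium of HCT-8/FU and last HCT-8/FU itself. Between HCT-8/FU and HCT-8 it fell by 0.85 on the log2 scale (SE 0.081), to 0.555 times the HCT-8 level, with an FDR of 1.1e-06 by edgeR's quasi-likelihood test. The change ranged from -0.86 to -0.83 when each of the 8 libraries was left out in turn, but correction for GC content and gene length took it to -0.55, short of the fold threshold, which ends the call.

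MCL1 (ENSG00000143384, chr1:150560895-150579738, minus strand) encodes a short-lived anti-apoptotic protein that is lost within hours when its synthesis stops. It stood at 372 and 367 CPM in HCT-8, 284 and 295 CPM in HCT-8/FU, 259 and 274 CPM in CM of HCT-8, and 280.4 and 268 CPM in CM of HCT-8/FU. HCT-8 lay above the other 3 groups without overlap, and the CM groups overlapped each other. The log2 fold change of HCT-8/FU against HCT-8 was -0.35 (SE 0.069), with an edgeR FDR of 8.1e-04, past the FDR but short of the fold threshold. BCL2L1 was lower by more. The ratio of MCL1 to BCL2L1 per kilobase was thus 0.745 and 0.722 in HCT-8 and 1.02 and 1.04 in HCT-8/FU. Per kilobase, and in values not corrected for GC content, MCL1 therefore exceeded BCL2L1 in the resistant line alone. Once GC content and length were corrected for, the log2 fold changes lay closer together, at -0.55 for BCL2L1 and -0.37 for MCL1. Whether MCL1 still exceeded BCL2L1 in HCT-8/FU after that step was not tested. The rank of both genes also depends on the scaling by exonic length, since in CPM MCL1 lay above BCL2L1 in HCT-8 too. BCL2L1 stood at 337 and 343 CPM there.

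BCL2 (ENSG00000171791, chr18:63123346-63320128, minus strand) gave 3.16 and 2.42 CPM in HCT-8, 5.62 and 3.84 CPM in HCT-8/FU, 3.11 and 4.48 CPM in CM of HCT-8, and 5.52 and 4.25 CPM in CM of HCT-8/FU. HCT-8 and HCT-8/FU did not overlap, but each group overlapped its neighbour in the order of means. BCL2 rose by 0.90 on the log2 scale in HCT-8/FU (SE 0.30), to 1.87 times HCT-8, with an edgeR FDR of 0.028. This call rested on few counts. It was lost in DESeq2 (log2 fold change 0.87, FDR 0.053), once GC content and gene length were corrected for (0.67), and when 1 library was left out, namely HCT-8 replicate 2 (0.67), HCT-8/FU replicate 1 (0.53) or either library of HCT-8 cells in resistant-cell medium (0.87 without replicate 1, 0.88 without replicate 2), while the sign held throughout.

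The effectors BAX and BAK1 assemble into the pore of the outer membrane. BAX (ENSG00000087088, chr19:48954815-48961798, plus strand) stood at 36.7 and 46.4 CPM in HCT-8, 34.1 and 39.8 CPM in HCT-8/FU, 53.6 and 53.3 CPM in CM of HCT-8, and 40.5 and 42.1 CPM in CM of HCT-8/FU. CM of HCT-8 was the highest group and overlapped no other, whereas HCT-8 and HCT-8/FU overlapped, with a log2 fold change of -0.23 (SE 0.12, edgeR FDR 0.16). BAK1 (ENSG00000030110, chr6:33572547-33580293, minus strand) stood at 36.3 and 40.7 CPM in HCT-8, 32.3 and 27.6 CPM in HCT-8/FU, 35.9 and 36.7 CPM in CM of HCT-8, and 31.1 and 30.4 CPM in CM of HCT-8/FU. Its HCT-8 libraries lay above those of HCT-8/FU, with a log2 fold change of -0.35 (SE 0.11) and an edgeR FDR of 0.02, short of the fold threshold.

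Among the BH3-only genes, BBC3 (ENSG00000105327, chr19:47220822-47232766, minus strand) alone was called. It gave 37.3 and 38.3 CPM in HCT-8, 24.6 and 21.9 CPM in HCT-8/FU, 47.8 and 38.0 CPM in CM of HCT-8, and 44.4 and 42.0 CPM in CM of HCT-8/FU. The HCT-8/FU libraries lay below all 6 others. CM of HCT-8 overlapped both HCT-8 and CM of HCT-8/FU, whereas HCT-8 lay below CM of HCT-8/FU without overlap. BBC3 fell by 0.68 on the log2 scale in HCT-8/FU (SE 0.12), to 0.625 times HCT-8, with an FDR of 4.1e-04 by edgeR's quasi-likelihood test, and the change ranged from -0.79 to -0.62 when libraries were left out in turn. Correction for GC content and gene length took it to -0.39, which ends the call. BIK (ENSG00000100290, chr22:43110750-43129712, plus strand), a BH3-only gene whose protein sits mostly at the endoplasmic reticulum, gave 24.6 and 24.0 CPM in HCT-8, 19.7 and 16.9 CPM in HCT-8/FU, 20.5 and 21.4 CPM in CM of HCT-8, and 22.6 and 21.5 CPM in CM of HCT-8/FU. HCT-8 and HCT-8/FU did not overlap, with a log2 fold change of -0.38 (SE 0.12) and an edgeR FDR of 0.026, again short of the fold threshold.

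The remaining BH3-only genes did not pass the FDR in this comparison. PMAIP1 (ENSG00000141682, chr18:59899996-59904305, plus strand) encodes NOXA, which pairs above all with MCL1. It stood at 21.2 and 19.0 CPM in HCT-8, 21.8 and 26.9 CPM in HCT-8/FU, 15.8 and 15.5 CPM in CM of HCT-8, and 19.3 and 18.0 CPM in CM of HCT-8/FU. CM of HCT-8 was thus its lowest group, and the log2 fold change of HCT-8/FU against HCT-8 was 0.26 (SE 0.14, edgeR FDR 0.16). BID (ENSG00000015475, chr22:17734138-17774770, minus strand) links death receptors to the mitochondrion once caspase-8 has cut it, and gave 25.9 and 27.4 CPM in HCT-8, 33.8 and 30.6 CPM in HCT-8/FU, 33.0 and 36.1 CPM in CM of HCT-8, and 30.5 and 32.1 CPM in CM of HCT-8/FU. HCT-8 was its lowest group and overlapped no other, with 0.28 (SE 0.11, edgeR FDR 0.056) for the log2 fold change of HCT-8/FU against HCT-8. BCL2L11 (ENSG00000153094, chr2:111119378-111168444, plus strand), which encodes BIM, varied between 14.35 and 20.0 CPM over the 8 libraries. Its lowest and highest values were the HCT-8 replicates themselves, and its log2 fold change was 0.01 with an interval of 2 standard errors from -0.31 to 0.33.

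In HCT-8/FU against HCT-8, 8 of 10 members had groups that did not overlap, beside 65% of all tested genes. Summed per kilobase, the anti-apoptotic genes reached 140.4 and 141 CPM in HCT-8 and 90.7 and 93.2 CPM in HCT-8/FU. The effectors summed to 30.6 and 36.3 CPM in HCT-8 and 27.8 and 27.8 CPM in HCT-8/FU, and the BH3-only genes to 55.3 and 55.2 CPM in HCT-8 and 48.9 and 46.2 CPM in HCT-8/FU. All 3 sums were therefore lower in the resistant line. The ratio of the anti-apoptotic to the BH3-only sum was 2.54 and 2.56 in HCT-8 and 1.85 and 2.02 in HCT-8/FU. A lower ratio was not particular to the resistant line. Sensitive cells given their own conditioned medium had ratios of 2.17 and 2.06, and those given resistant-cell medium 1.79 and 1.82. Their anti-apoptotic sums also lay below HCT-8, at 117 and 108 CPM with the former medium and 100.2 and 97.7 CPM with the latter. Their BH3-only sums ranged from 52.3 to 56.0 CPM. With 2 libraries a group, an exact permutation test of a sum or a ratio cannot go below 0.333, so none was tested.

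**Figure D2:**
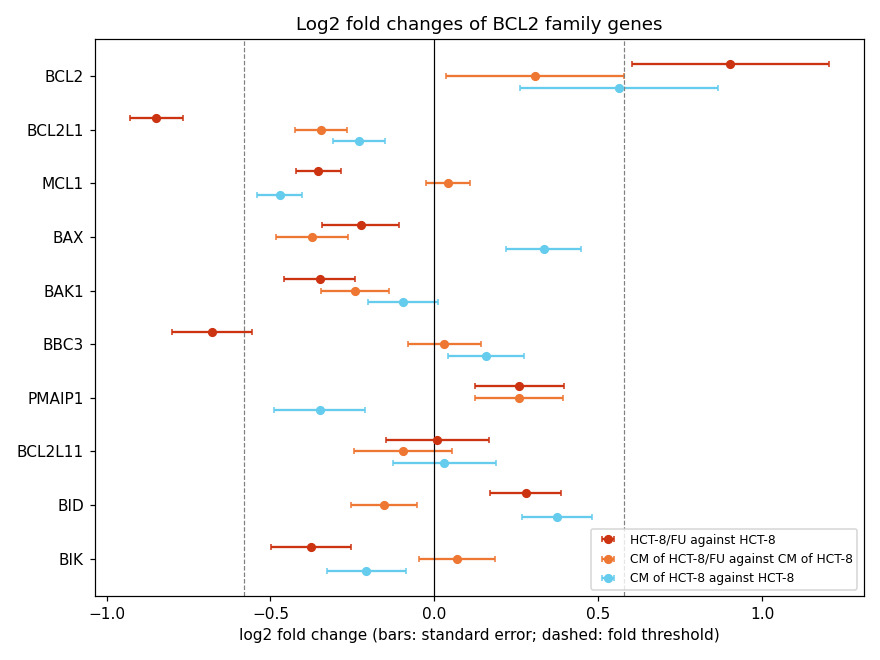
Log2 fold change of each BCL2 family gene (x axis) in 3 comparisons (colours), with bars of 1 standard error and dashed lines at the fold threshold of 0.58. In HCT-8/FU against HCT-8, BCL2L1 at -0.85, BBC3 at -0.68 and BCL2 at 0.90 lie beyond the lines, and in both other comparisons no point does.

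Comparing CM of HCT-8/FU with CM of HCT-8, the comparison of media, shows how the same genes differed in sensitive cells kept in the medium of resistant or of sensitive cells. None of the 10 changed by the rule of FDR and fold in edgeR, beside 9.25% of all tested genes, 7.97% higher and 1.28% lower. DESeq2 also called 0, whereas 3 members had an unadjusted p under 0.05 in edgeR. On the FDR alone BCL2L1 and BAX passed, beside 19.7% of all tested genes. BCL2L1 had a log2 fold change of -0.34 (SE 0.079), which is 0.787 times the level in CM of HCT-8, with an edgeR FDR of 0.0061. BAX had a log2 fold change of -0.37 (SE 0.11) and an edgeR FDR of 0.027. BAK1, the other effector, was the third with an unadjusted p under 0.05, at -0.24 (SE 0.10, edgeR FDR 0.12). The effector sum per kilobase, not corrected for GC content, was 37.1 ± 0.17 CPM in CM of HCT-8 and 29.9 ± 0.19 CPM in CM of HCT-8/FU (SD, n = 2). Once GC content and length were corrected for, BAX had a log2 fold change of -0.14 (edgeR FDR 0.51) in this comparison. That of BAK1 was then -0.0013, so neither effector passed the FDR.

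In the same comparison MCL1 and BBC3 stayed close to 0, at 0.04 (SE 0.068) and 0.03 (SE 0.11). The interval of 2 standard errors ran from -0.09 to 0.18 for MCL1 and from -0.19 to 0.25 for BBC3, which leaves room for small changes of either sign. BCL2 had a log2 fold change of 0.31 with an interval from -0.23 to 0.85, which spans 0. The remaining log2 fold changes were 0.26 for PMAIP1, 0.07 for BIK, -0.10 for BCL2L11 and -0.15 for BID. Groups did not overlap for 7 of 10 members, beside 61.4% of all tested genes. The median over the 10 was -0.03, and over all tested genes it was -0.06.

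CM of HCT-8 against HCT-8 shows how far the family differed between conditioned and unconditioned medium of the same line. It shares its control libraries with the first comparison, and CM of HCT-8 is the control of the second. No member changed by FDR and fold in edgeR, beside 8.15% of all tested genes (3.86% higher, 4.29% lower), DESeq2 called 0, and 5 had an unadjusted p under 0.05. On the FDR alone, which 19.4% of all tested genes passed, MCL1 had a log2 fold change of -0.47 (SE 0.069, edgeR FDR 2.5e-04) and BID one of 0.37 (SE 0.11, edgeR FDR 0.022). BAX, at 0.33 (SE 0.11, edgeR FDR 0.053), PMAIP1, at -0.35 (SE 0.14, edgeR FDR 0.096), and BCL2L1, at -0.23 (SE 0.080, edgeR FDR 0.057), were the other 3. When the 3 libraries with many unaligned records were left out together, an alternative added after the data were seen, BCL2 was called in this comparison with a log2 fold change of 0.89.

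Whether a gene's log2 fold change in the resistant line differed from that under its medium was tested as the difference of the first and the second comparison. BBC3 was called, with a difference in log2 fold change of -0.71 (SE 0.16) and an edgeR FDR of 0.011, and 1 of 10 members stands beside 7.69% of all tested genes (3.55% higher, 4.14% lower). The log2 fold change of BBC3 was -0.68 in HCT-8/FU and 0.03 under its medium. This call was lost without CM of HCT-8 replicate 2 (-0.53) or without CM of HCT-8/FU replicate 1 (-0.67). BCL2L1 and MCL1 were past the FDR and short of the fold threshold, with differences of -0.50 (SE 0.11, edgeR FDR 0.0088) and -0.40 (SE 0.097, edgeR FDR 0.015), beside 11.6% of all tested genes on the FDR alone. BCL2L1 was past the fold threshold too without CM of HCT-8 replicate 1 (-0.63). When each library was left out in turn, the difference ranged from -0.63 to -0.385 for BCL2L1 and from -0.486 to -0.358 for MCL1. For BCL2, BAX, BAK1, PMAIP1, BCL2L11, BID and BIK the difference did not pass the FDR. The widest interval was that of BCL2, from -0.21 to 1.40.

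Base composition moved with the first comparison. When each library was set against the average of all 8, the Spearman correlation over genes of its deviations with GC content was -0.488 and -0.452 in HCT-8/FU and 0.052 and 0.215 in HCT-8. This correlation was 0.375 and 0.534 for the pair given CM of HCT-8, whereas the pair given CM of HCT-8/FU had -0.065 and -0.062. No p is given for it, since genes are no replicates. The exons of the 3 members with the most GC, BBC3 (64.4%), BAX (60.7%) and BAK1 (58.8%), had negative log2 fold changes, as did those of BCL2L1 (57.8%) and BIK (55.9%). Those of PMAIP1 (40%) and BCL2 (43.3%) had positive ones, and MCL1 (45.5%) a negative one. BID (53%) had a positive log2 fold change, 0.28, which the correction raised to 0.49, and BCL2L11 (47.4%) one of 0.01. After each library was corrected for GC content and gene length, 0 of 10 members were called in HCT-8/FU against HCT-8 by edgeR, beside 15.6% of all tested genes. BCL2L1 then had a log2 fold change of -0.55 (FDR 1.6e-04), BBC3 one of -0.39 (FDR 0.028), MCL1 one of -0.37 (FDR 5.6e-04) and BID one of 0.49 (FDR 0.0029), all past the FDR but not past the fold threshold in edgeR. BCL2, at 0.67 (edgeR FDR 0.12), no longer passed the FDR, and BAX (0.08) and PMAIP1 (-0.13) changed sign. A true change that runs along with base composition is taken out by this step too, so the share of the uncorrected values that is due to base composition cannot be told apart from such a change. Under the correction BCL2L1, BAX and BAK1 stood at -0.11, -0.14 and -0.0013 in the comparison of media. There 0 of 10 members were called beside 4.92% of all genes. In CM of HCT-8 against HCT-8 it was 0 of 10 beside 5.71%. On the FDR alone BCL2L1 (-0.36, edgeR FDR 0.0085) and MCL1 (-0.44, edgeR FDR 3.5e-04) then passed there. BID (0.29, edgeR FDR 0.084) no longer did. The difference for BBC3, at -0.60, was still called, 1 of 10 beside 7.34%.

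**Figure D3:**
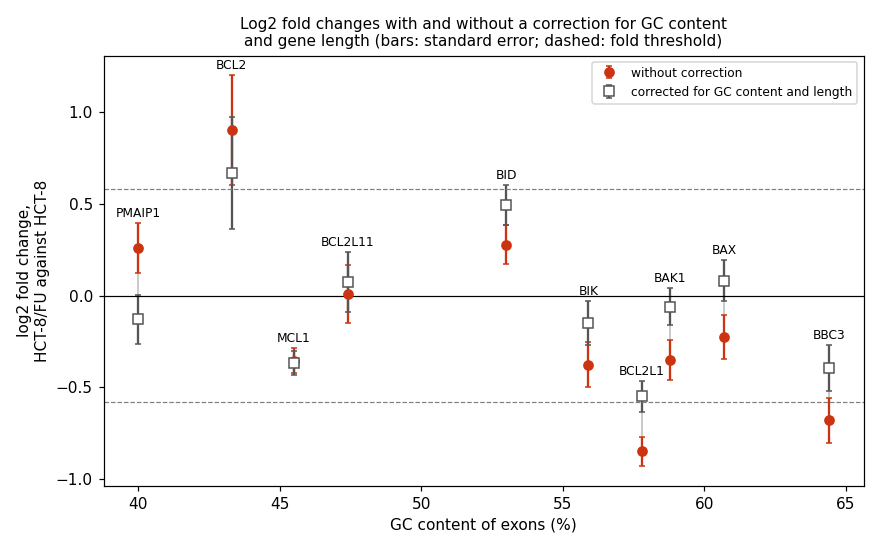
Log2 fold change of HCT-8/FU against HCT-8 (y axis) by GC content of the exons in percent (x axis), without correction (filled circles) and corrected for GC content and gene length (open squares), with bars of 1 standard error. The correction takes BCL2L1 from -0.85 to -0.55 and BBC3 from -0.68 to -0.39, inside the dashed fold threshold of 0.58, and leaves MCL1 near -0.35.

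Upstream bases are shown for BCL2L1 and BBC3, the members called lower in the resistant line. They are the RefSeq promoter windows (GRCh38.p14, minus strand), cut to the bases outside the gene as GENCODE 44 draws it. Capitals mark matches, on either strand, to the motifs named below them.
BCL2L1, chr20:31723990-31724213: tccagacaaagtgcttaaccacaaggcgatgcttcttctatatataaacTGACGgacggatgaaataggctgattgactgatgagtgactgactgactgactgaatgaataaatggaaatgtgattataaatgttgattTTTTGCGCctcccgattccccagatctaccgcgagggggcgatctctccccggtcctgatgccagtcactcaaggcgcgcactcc
BBC3, chr19:47232767-47232917: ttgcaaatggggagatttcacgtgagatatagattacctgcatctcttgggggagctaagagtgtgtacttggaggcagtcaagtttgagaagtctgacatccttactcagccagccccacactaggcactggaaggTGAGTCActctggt
The motifs reported here are GGGCGG (GC box), TGACG (core of a cyclic AMP response element), TGACGTCA (the whole element, which contains TGACG), TGATGNAA (core of the ATF4 and C/EBP composite site), TGANTCA (AP-1), GTAAACA (FOXO) and TTTNGCGC (E2F). Over 35116 RefSeq windows of 250 bases, TGACG occurs in 21.2%, TTTNGCGC in 1.51% and TGANTCA in 6.57%. RefSeq gives BCL2L1 a second window, chr20:31722869-31723118, which lies inside the gene and holds 0 matches to these motifs. The BCL2L1 window shown holds 1 match to TGACG and 1 to TTTNGCGC, and the BBC3 window 1 match to TGANTCA. These matches are letters in a window and not shown to be bound. Windows were found for 8 of 10 members, without MCL1 and BIK.

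The genes around the family were taken from 7 lists with 66 genes in all. Of 7 tested transcription factors that act on BH3-only genes, 1 rose and 4 fell in HCT-8/FU against HCT-8, beside 13.2% of all tested genes called higher and 8.12% lower, with a median log2 fold change of -0.62, beside 0.01 over all tested genes. DDIT3, the CHOP factor of the unfolded protein response, fell by 2.29 on the log2 scale, JUN, a subunit of AP-1, by 1.09, and ATF4, the driver of the integrated stress response, by 0.88. In the comparison of media none of the 7 was called by edgeR or DESeq2. Of these, 4 had an unadjusted p under 0.05 in edgeR, and ATF4 passed the FDR with a log2 fold change of -0.48. In CM of HCT-8 against HCT-8, edgeR called 3 of the 7, 2 higher and 1 lower, beside 8.15% of all tested genes. DDIT3 was the lower one, at -1.05 (edgeR FDR 5.0e-06). Its mean level was 209 CPM in HCT-8, 41.4 CPM in HCT-8/FU, 101 CPM in CM of HCT-8 and 86.9 CPM in CM of HCT-8/FU. After correction for GC content and length 2 of the 7 were called higher and 3 lower in the resistant line, beside 15.6% of all tested genes. The lower ones were DDIT3, JUN and ATF4. E2F1 had a log2 fold change of 0.50 in HCT-8/FU (edgeR FDR 0.0011), short of the fold threshold, and was called higher after the correction (0.81).

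Of 12 tested genes among the other BCL2 family members, 1 rose and 3 fell in HCT-8/FU, 4 calls beside 21.3% of all tested genes. BMF, a BH3-only gene, fell by 1.01, BCL2L14 by 0.94 and BCL2L13 by 0.62, and BCL2L15 rose by 1.21 on the log2 scale. The median of the list was 0.11, so its sign differs from that of most calls. After correction for GC content and length BCL2L13, BCL2L14 and BCL2L15 were still called and BMF (-0.76) was not. In the comparison of media 0 of the 12 were called by edgeR and by DESeq2, with 5 at an unadjusted p under 0.05 in edgeR. In CM of HCT-8 against HCT-8, edgeR called 2 of the 12 and DESeq2 1, beside 8.15% of all tested genes in edgeR. BCL2L14 was lower there, at -0.95 (edgeR FDR 0.0056), and BCL2L15 higher, at 0.74 (edgeR FDR 0.042). Both were still called there after the correction. Downstream, 4 of the 13 genes of the apoptosome and the caspases rose in HCT-8/FU and 2 fell, 6 calls beside the same 21.3%. APAF1, the scaffold of the apoptosome, rose by 1.16, whereas CASP10 fell by 1.02 and DFFA, the inhibitor of the apoptotic nuclease, by 0.65. Under the medium of resistant cells 0 of the 13 were called by edgeR and by DESeq2, with 5 at an unadjusted p under 0.05 in edgeR. After correction for GC content and length APAF1 (0.84) and CASP10 (-1.09) were still called, and DFFA (-0.56) was not.

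Of 7 tested genes of the inhibitor of apoptosis (IAP) proteins, several of which act on caspases, and of their antagonists, 4 rose in HCT-8/FU and 3 rose under its medium, beside 13.2% and 7.97% of all tested genes called higher. The medians of the list were 0.76 and 0.52. BIRC2, BIRC3 and BIRC6 were called in both comparisons, whereas XIAP, at 0.41 and 0.52, and the antagonists DIABLO and HTRA2 were called in neither. HTRA2 had a log2 fold change of -0.49 in HCT-8/FU (edgeR FDR 2.8e-04). In HCT-8/FU, BIRC3 rose by 2.00, BIRC2 by 1.00, BIRC6 by 0.89 and BIRC5, which encodes survivin, by 0.76. Under the medium BIRC6 rose by 1.28, BIRC3 by 1.26 and BIRC2 by 0.79. BIRC5 had a log2 fold change of -0.43 there that did not reach the fold threshold. The control of that comparison, CM of HCT-8, itself differed from HCT-8, with BIRC6 called lower (-0.81) and BIRC5 called higher (1.00). BIRC2 (-0.13) and BIRC3 (0.02) were not called between these groups. Mean levels of BIRC6 were 125 CPM in HCT-8, 71.7 CPM in CM of HCT-8 and 173 CPM in CM of HCT-8/FU. BIRC3 rests on levels of 0.89 to 6.52 CPM. With the correction for GC content and length 2 of these genes, BIRC3 and BIRC5, were still called in HCT-8/FU and 1, BIRC6, under the medium.

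Among 9 mitochondrial and membrane partners, the mitochondrial fusion gene OPA1 and the fission gene DNM1L were called in both comparisons, beside 21.3% of all tested genes in HCT-8/FU and 9.25% under its medium. OPA1 rose by 1.26 in HCT-8/FU and by 1.09 under its medium, and DNM1L by 1.09 and 0.71. With the correction OPA1 was called in both comparisons and DNM1L in HCT-8/FU. The medians of the list were 0.05 and -0.22. Of 7 turnover enzymes of MCL1 and BH3-only proteins, 3 rose in HCT-8/FU and 2 under its medium, beside 13.2% and 7.97% of all tested genes called higher. USP9X, the deubiquitinase that stabilises MCL1, rose by 0.78 and 1.15, CUL5 by 0.83 and 0.69. USP13 rose by 0.78 in HCT-8/FU, with 0.37 under the medium. In CM of HCT-8 against HCT-8, USP9X was called lower (-0.69), whereas CUL5 (-0.40) and USP13 (0.15) were not called. With the correction none of these 3 was called in HCT-8/FU, and USP9X (0.68) was called under the medium. Of 8 tested genes of the death receptor pathway, 2 rose and 2 fell in HCT-8/FU, 4 calls beside 21.3% of all tested genes, and FAS alone rose under its medium, beside 9.25%. The TRAIL receptor TNFRSF10B fell by 1.23 and TNFRSF1A by 0.82, while CFLAR, which blocks caspase-8, rose by 0.66, and FAS by 0.71 and, under the medium, by 0.83. Of these 4, TNFRSF10B alone was called after the correction. TNFRSF10B was also called lower in CM of HCT-8 against HCT-8, at -0.81 (edgeR FDR 6.8e-06). It was the only 1 of the 8 called there, beside 8.15% of all tested genes. Its mean level was 485 CPM in HCT-8, 207 CPM in HCT-8/FU, 277 CPM in CM of HCT-8 and 245 CPM in CM of HCT-8/FU. In HCT-8/FU the median log2 fold change was 0.21 for the apoptosome and caspases, 0.23 for the turnover enzymes and -0.28 for the death receptor pathway. Under the medium these medians were -0.13, 0.29 and -0.07, beside -0.06 over all tested genes.

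**Figure D4:**
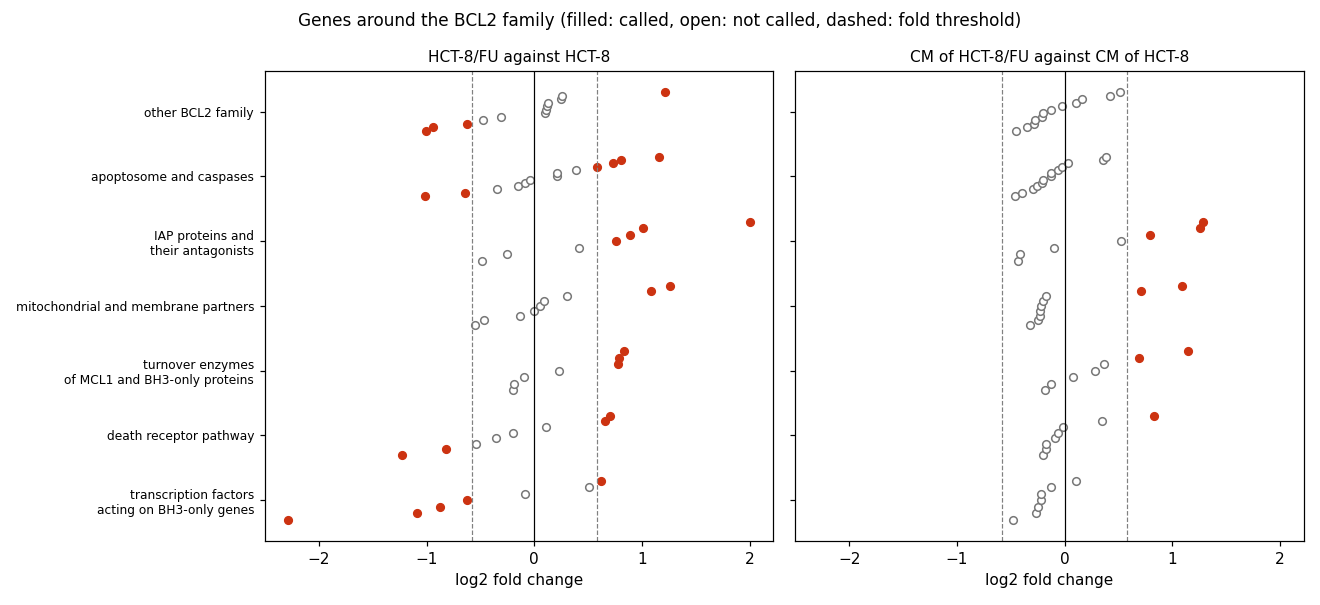
Log2 fold change (x axis) of each tested gene of 7 lists around the BCL2 family (y axis), for HCT-8/FU against HCT-8 (left) and for the comparison of both conditioned media (right). Filled points are called changed, open points are not, and dashed lines mark the fold threshold of 0.58. DDIT3, at -2.29, lies farthest to the left and BIRC3, at 2.00, farthest to the right in the left panel.

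Some members share exonic bases with other genes, and the sources used here do not say whether reads were counted by strand. Of the exonic bases of BCL2L1, 41.3% lie opposite the long noncoding RNA ABALON, which was not analysed here. BCL2L11 shares 10.8% of its exonic bases with MIR4435-2HG on the opposite strand, which had 81 to 554 counts per library. MCL1 shares 5.27% with ADAMTSL4-AS1 on its own strand, at 13 to 106 counts, and BAK1 4.11% with GGNBP1, at 42 to 216 counts. The BAK1 copy BAK1P1 had 0 to 12 counts.

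For each member the protein-coding gene with the most similar profile was sought among those with a mean of at least 5 CPM, by Pearson's r of log2 CPM over the 8 libraries. The libraries come in pairs of 4 groups and share the trends with GC content, so r is a description only. It was 0.995 for BCL2L1 with DHX16, 0.994 for PMAIP1 with NUP153, 0.991 for MCL1 with RAPH1 and 0.991 for BBC3 with B3GALT6. BID was most like GAL3ST2 (0.989), BIK most like XDH (0.982), BAX most like CERCAM (0.977) and BAK1 most like PCGF1 (0.975). The lowest best matches were those of BCL2 with KCNC4 (0.935) and BCL2L11 with ZNF830 (0.89), the pair of members with the lowest levels per kilobase.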

How the data were processed

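Per the labels and the study's methods, the authors used HISAT2 on GRCh38, then SAMtools 1.18, and HTSeq 0.11.2 with an Ensembl annotation for counting, and deposited raw counts of reads per gene, 1 table a library. They also deposited tables of their own DESeq2 1.30.0 comparisons (log2 fold changes, standard errors, p-values, a statistic and a mean count), which were not used. The summary lines at the end of each table, for records that were unaligned or could not be given to a gene, held 59.2% to 70.3% of the records and entered neither library sizes nor tests.

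The analysis used edgeR 4.0.16 under R 4.3.3. All 8 libraries entered 1 fit of the means of 4 groups (TMM, filterByExpr, quasi-likelihood F-test, Benjamini-Hochberg adjustment over 20305 tested genes). Thresholds were 0.05 for the FDR and 0.58 for the size of the log2 fold change. Standard errors were derived from the log2 fold change and its F statistic. DESeq2 1.42.0 was an alternative. Names, lengths and GC content came from GENCODE 44, which holds 56105 of the 64253 gene identifiers. The correction for GC content and length removes a spline trend (5 degrees of freedom) per library. Fits were tested on simulated data.

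Replicates differed by more than sampling noise, with a median chi-square per gene between them of 1.03 to 2.06, against 0.455 for such noise. This check cannot tell separate cultures from repeated processing of 1 sample. Samples were grouped by their titles. The sample descriptions name Ham's F12 as culture medium and the study's methods another one.

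All members are reported. From the lists, at most 4 genes each were named, those called in HCT-8/FU against HCT-8 or in the comparison of media, by smallest adjusted p. Of the genes this rule names, 2 are counted in their lists but not reported here by name. Members and lists were chosen with earlier results of these data known. Counts per gene hold no splicing or protein data. Every sample column was used.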

Additional observations from a re-analysis of the deposited data

Results flagged for a closer look

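For 3 members the change in the resistant line and the change under its medium differed by edgeR's test of the difference itself, in the fit of all 8 libraries. The log2 fold change in the resistant line minus that in the comparison of media was -0.71 for BBC3, -0.50 for BCL2L1 and -0.40 for MCL1. For BBC3 the parts were -0.68 and 0.03, for BCL2L1 -0.85 and -0.34, and for MCL1 -0.35 and 0.04. The difference for BBC3 alone also passed the fold threshold. Each of these differences rests on all 4 groups, so the level in CM of HCT-8 enters it. MCL1 stood at 259 and 274 CPM there, about as low as in CM of HCT-8/FU, at 280.4 and 268 CPM, and below HCT-8, at 372 and 367 CPM. No group had enough replicates for a test of single outlying libraries.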

How the results depend on the processing

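The 2 falls in HCT-8/FU, those of BCL2L1 and BBC3, were called under every alternative run except the corrections for GC content and length, which left 0 members called with and without the replicate block. The FDR without the fold threshold gave 6 members in HCT-8/FU against HCT-8, 3 for the difference and 2 each in the comparison of media and in CM of HCT-8 against HCT-8. Without the 3 libraries with many unaligned records, chosen after seeing the data, 3 members were called for the difference (BCL2 at 1.09, BCL2L1 at -0.65, BBC3 at -0.82) and 1 in CM of HCT-8 against HCT-8. When libraries were left out in turn, the calls for the difference ranged from 0 to 2. The replicate block left 2 members called in HCT-8/FU, since BCL2 (0.83) was lost. The labels do not say what a replicate number marks, same-numbered replicates deviated from their group means with correlations of -0.12 to 0.13 over genes, and the block moved no other count of members called.

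Among members not called, small values changed sign. In HCT-8/FU against HCT-8, the correction gave 0.083 for BAX and -0.13 for PMAIP1 (0.11 and -0.12 with the block). BCL2L11 gave -0.013 without a filter, -0.067 without the 3 libraries and -0.16 to 0.32 with libraries left out. In the comparison of media, the correction gave -0.024 for PMAIP1 and 0.048 for BID (-0.021 and 0.050 with the block, and 0.0013 for BCL2L11), and BBC3 ranged from -0.15 to 0.18 with libraries left out. In CM of HCT-8 against HCT-8, BBC3 gave -0.063 under the correction (-0.074 with the block) and -0.011 without the 3 libraries. BCL2L11 gave -0.018 with DESeq2's size factors, -0.00251 in DESeq2, -0.17 without the 3 libraries and -0.14 to 0.28 with libraries left out. For the difference, PMAIP1 gave -0.028 with DESeq2's size factors, -0.051 without a filter, -0.024 in DESeq2, -0.11 and -0.10 under the correction without and with the block, -0.068 with a term for unaligned records, -0.069 without the 3 libraries and -0.17 to 0.18 with libraries left out. BAX gave -0.076 without the 3 libraries, and BCL2L11 -0.068 to 0.33 with libraries left out. These causes were not tested.

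BCL2 has the fewest counts of the 10, 23 to 172 per library, which limits what its values can show. The difference between the comparisons could not be fitted on the groups compared only, since it needs all 4.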
